A study of Mus musculus with 3 samples.

Results

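PARP-1 occupancy of 4 very long neuronal genes, Lrp1b, Csmd1, Csmd3 and Erbb4, was examined in the nucleus accumbens of cocaine-treated and saline-treated mice. A deposited table of differential PARP-1 sites names 6 of its 1727 sites for these genes, and all 6 are described. The genes were picked because of their length and because some of their sites were lower after cocaine, so the direction and size of change at these 6 sites are given as a description and carry no test. Cocaine mice were C57BL/6 animals given cocaine at 20 mg/kg into the peritoneum daily over 7 days, with tissue taken 30 min after the final injection. Control mice of that strain received saline on the same schedule. A DNA input sample, labelled as control and made without antibody, has no column of its own in the table. Per the labels, accumbens punches were pooled from 10 mice. The table holds values of 2 cocaine and 3 saline replicates, although the labels state 3 sequencing replicates per group. Whether each replicate was a pool of its own was not settled here, so SDs below are the spread between libraries only. Which cocaine replicates the table holds is not stated, and the replicate numbers below only give the order in the table.

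PARP-1 is an enzyme that binds DNA breaks and other DNA structures and builds chains of ADP-ribose on itself and on neighbouring chromatin proteins. Very long genes take a long time to transcribe and often replicate late. In dividing human cells several of them, LRP1B among them, lie at common fragile sites, where DNA breaks under replication stress. Most cells of the adult accumbens no longer divide. Lrp1b encodes a large endocytic receptor of the low-density lipoprotein receptor family. Csmd1 and Csmd3 encode large membrane proteins built from CUB and sushi domains, and Csmd1 is known to restrain complement. Erbb4 encodes the receptor tyrosine kinase for neuregulins, which in the forebrain is found mainly in inhibitory interneurons.

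The length in the label could be checked and the fragility could not. In the gene bounds of the table (mm9) Lrp1b spans 2057 kb on chromosome 2 (40452292 to 42509117) and ranks number 2 by length among the 688 genes with a listed site. Csmd1 spans 1643 kb on chromosome 8 (15892544 to 17535384) and ranks 4. Csmd3 spans 1211 kb on chromosome 15 (47412183 to 48623534) and ranks 9, and Erbb4 spans 1068 kb on chromosome 1 (68086539 to 69154632) and ranks 17. All 4 genes lie on the minus strand, so their start is at the higher coordinate. The median length of the 688 genes was 74.6 kb. Measures of DNA breaks and of replication were not analysed here. The table lists differential sites only, so the tissue could not be checked against marker genes.

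PARP-1 signal was lower after cocaine at 3 of the 6 sites, both in Lrp1b and 1 of the pair in Erbb4, and higher at 3, in Csmd1, Csmd3 and Erbb4. Of all 1727 listed sites 7.06% were lower and 92.9% higher, and of the 770 listed sites with a gene name 2.86% were lower and 97.1% higher. Because the genes had been picked with these directions known, nothing is read from the difference. Values are normalized read counts, which are reads multiplied by a scaling factor that the authors set for each library. At the lower sites the replicate values ran between 3.29 and 4.93 after cocaine and between 12.74 and 17.47 after saline. At the higher sites they ran between 13.64 and 15.91 after cocaine and between 2.12 and 5.47 after saline. The groups did not overlap at any of the 6 sites, as at 99.0% of all listed sites, which had been selected on these same libraries. In bulk tissue, fewer nuclei carrying PARP-1 at a site and less PARP-1 per nucleus cannot be told apart.

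**Figure D1:**
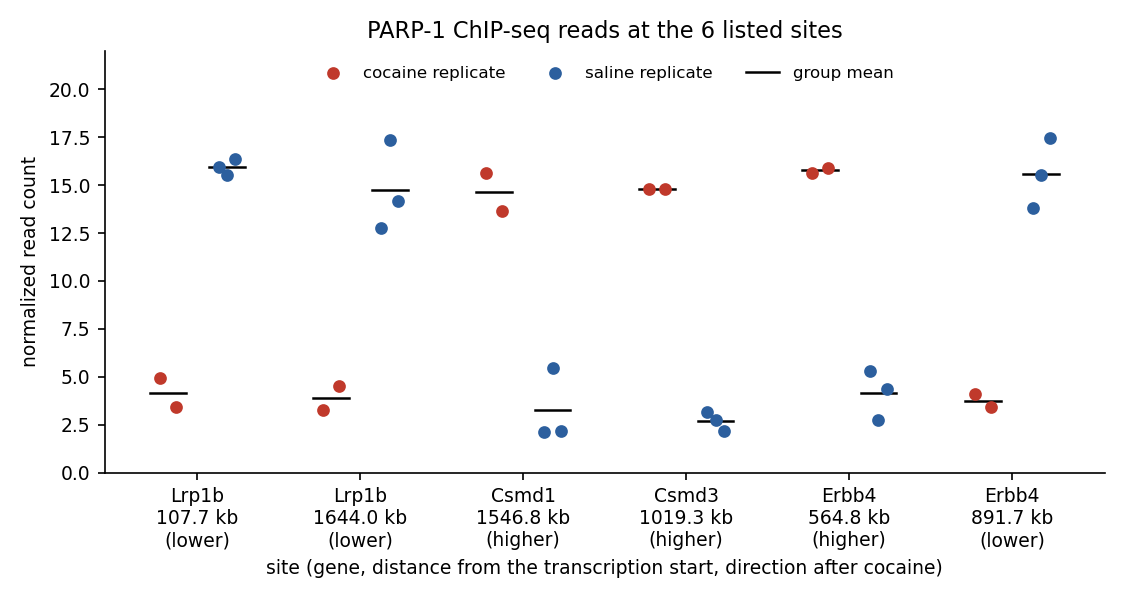
Normalized PARP-1 read count (vertical axis) at each of the 6 listed sites, named below by gene, distance from the transcription start and direction. Points are single replicates (2 cocaine, 3 saline) and lines are group means. No cocaine point overlaps the saline points of its site, and the higher group of each site lies between 12.74 and 17.47.

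Lrp1b, the endocytic receptor gene, held 2 sites and both were lower after cocaine. The site near its start (chromosome 2, 42400901 to 42401900, mm9) lay in the gene body 107.7 kb from the transcription start. It had 4.93 and 3.41 normalized reads in the cocaine replicates, against 15.93, 15.50 and 16.38 in the saline replicates. All 3 saline values lay close together, and both cocaine values lay below them. Cocaine replicates averaged 4.17 ± 1.07 (SD, n = 2) and saline replicates 15.9 ± 0.44 (SD, n = 3), a log2 change of -1.93. These values rest on 9 reads over the cocaine libraries and 47 over the saline libraries. The depth-adjusted ratio of reads was 0.270, with an exact Clopper-Pearson 95% interval of 0.116 to 0.557 that covers counting error only.

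The other Lrp1b site (chromosome 2, 40864601 to 40865600) lay 1644 kb from the start and 1536 kb from the first. Its values were 3.29 and 4.55 in the cocaine replicates and 12.74, 17.33 and 14.19 in the saline replicates. Saline replicates were more spread here than at the site near the start, and saline replicates 1 and 3 stood at the lowest values that any listed lower site has in those libraries. Cocaine replicates averaged 3.92 ± 0.89 (SD, n = 2) and saline replicates 14.8 ± 2.35 (SD, n = 3), a log2 change of -1.91. The ratio of reads was 0.256 (exact interval 0.104 to 0.550, from 8 and 44 reads). Both Lrp1b sites thus held similar read counts and had similar ratios. Nothing is read from this, because listed lower sites with a mean count under 100 are much alike. From the 10th to the 90th percentile their saline means ran from 14.3 to 19.8 and their log2 changes from -2.33 to -1.71.

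Erbb4, the neuregulin receptor gene, held a site in each direction, 327 kb apart. The site closer to the start (chromosome 1, 68589301 to 68590400, 564.8 kb from the start) was higher. It had 15.61 and 15.91 normalized reads after cocaine, against 5.31, 2.74 and 4.37 after saline. Both cocaine values lay above all 3 saline values, with means of 15.8 ± 0.21 in cocaine replicates (SD, n = 2) and 4.14 ± 1.30 in saline replicates (SD, n = 3). The log2 change was 1.93 and the ratio of reads 3.87 (exact interval 1.95 to 8.24, from 33 and 12 reads).

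The second Erbb4 site (chromosome 1, 68262301 to 68263500, 891.7 kb from the start) was lower. Its values were 4.11 and 3.41 after cocaine, against 13.80, 15.50 and 17.47 after saline. Both cocaine values lay within the range of the saline values at the other Erbb4 site. The mean was 3.76 ± 0.49 in cocaine replicates (SD, n = 2) and 15.6 ± 1.84 in saline replicates (SD, n = 3), with a log2 change of -2.05. The ratio of reads was 0.245 (exact interval 0.0999 to 0.524, from 8 and 46 reads).

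Csmd1 and Csmd3, the CUB and sushi domain genes, held 1 higher site each. At Csmd1 (chromosome 8, 15988101 to 15989100, 1547 kb from the start) there were 15.61 and 13.64 normalized reads after cocaine and 2.12, 5.47 and 2.18 after saline. Saline replicate 2 held more than the other saline replicates, and the value of cocaine replicate 2 equals the lowest that any listed higher site has in that library. The mean was 14.6 ± 1.39 after cocaine (SD, n = 2) and 3.26 ± 1.92 after saline (SD, n = 3), a log2 change of 2.17 and a ratio of reads of 4.37 (exact interval 2.09 to 9.98, from 31 and 10 reads). Without saline replicate 2 the log2 change was 2.77, a ratio more than 1.5 times as large.

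At Csmd3 (chromosome 15, 47603701 to 47604700, 1019 kb from the start) the values were 14.79 and 14.77 after cocaine and 3.19, 2.74 and 2.18 after saline. Cocaine replicates were almost equal as normalized values, although they rest on 18 and 13 reads. The mean was 14.8 ± 0.014 after cocaine (SD, n = 2) and 2.70 ± 0.51 after saline (SD, n = 3). The log2 change was 2.45 and the ratio of reads 5.46 (exact interval 2.45 to 13.7, from 31 and 8 reads). By this estimate the site was number 35 of the 1567 higher sites with a mean count under 100, although its interval overlaps those of Csmd1 and of the higher Erbb4 site.

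**Figure D2:**
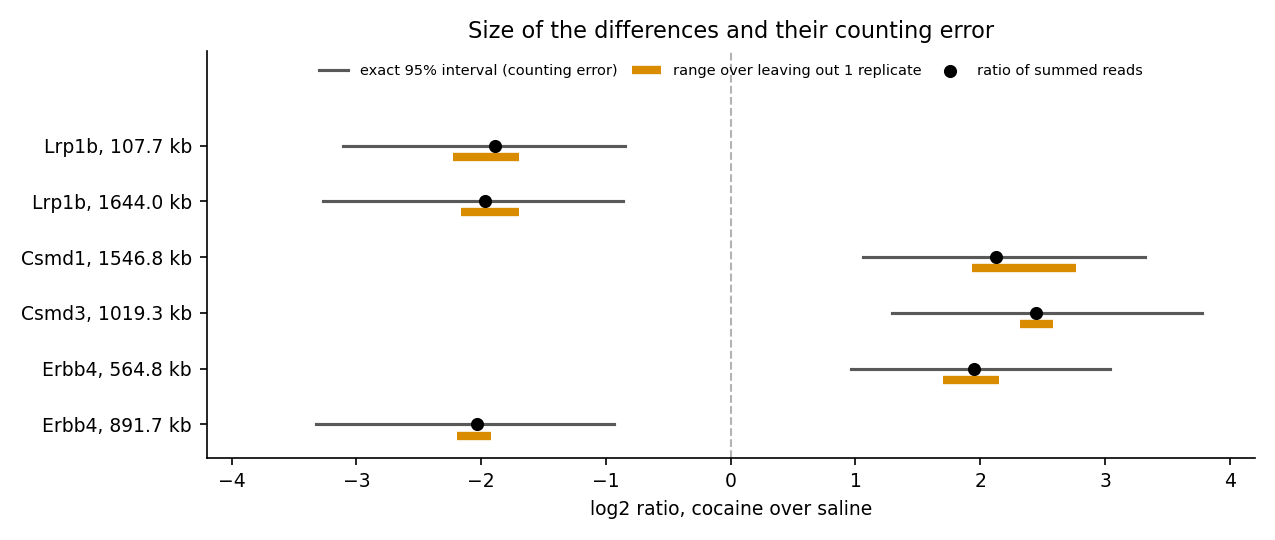
Log2 ratio of cocaine over saline (horizontal axis) at the 6 sites. Points are depth-adjusted ratios of summed reads with exact 95% intervals, and orange bars span the log2 ratios of group means when 1 replicate is left out. The intervals of the 3 lower sites overlap one another, as do those of the 3 higher sites. None reaches 0, but only differential sites were listed and the intervals cover counting error only, so nothing is read from this.

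Sites of one direction could not be ordered by size, since their intervals overlapped throughout. The median log2 change was -1.93 over the 3 lower sites and 2.17 over the 3 higher sites. Over all listed sites of the same direction it was -1.93 and 1.84. The lower median of all sites includes sites of high count that changed little, and among the 91 lower sites with a mean count under 100 it was -2.05. By size of change the lower sites ranked 43 (Erbb4), 60 and 66 (Lrp1b) among these 91. The Erbb4 higher site ranked 533 and the Csmd1 site 141 among the 1567. In the authors' deposited table the adjusted p of the 6 sites lay between 0.000362 (Csmd3) and 0.00209 (Lrp1b, 1644 kb from the start). Under an adjusted p of 0.001 in that table, which 23.6% of all listed sites meet, 1 of the 6 remained, the Csmd3 site. All 6 had a log2 change of at least 1.5 in size, as had 91.7% of all listed sites.

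The 6 sites had similar read counts and differed more in how far these stood above background. The authors' deposited table gives an enrichment, the signal over a background set by the authors. At the Lrp1b site near the start the enrichment was 0.81 after cocaine and 3.25 after saline. At the other Lrp1b site it was 0.25 after cocaine and 0.97 after saline, and at the lower Erbb4 site 0.24 and 1.02. PARP-1 signal at these last 2 sites was therefore close to background after saline and well below it after cocaine, whereas the Lrp1b site near the start was above background after saline. Dividing the mean count by the enrichment gives the background in normalized reads, which after saline was 4.90 at the Lrp1b site near the start, 15.2 at the other Lrp1b site and 15.3 at the lower Erbb4 site. The median over the 91 lower sites was 11.3. Counting the site itself, background was at or above that of the Lrp1b site near the start at 89 of the 91. Background was at or above that of the other Lrp1b site at 18 of the 91 and at or above that of the lower Erbb4 site at 15.

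Among the 91 lower sites with a mean count under 100, the Lrp1b site near the start had the highest enrichment after cocaine and ranked 2 after saline. Its saline mean count of 15.9 stood at the median of these sites, so the rank reflects its low background. The median enrichment over these sites was 0.36 after cocaine and 1.44 after saline. Counting the site itself, 8 of the 91 had an enrichment after saline at or below that of the other Lrp1b site, and 10 at or below that of the lower Erbb4 site. The 3 higher sites had enrichments of 1.68 (Csmd1), 2.06 (Csmd3) and 1.71 (Erbb4) after cocaine, against 0.39, 0.40 and 0.47 after saline. Each stood above background after cocaine and below it after saline. The medians over the 1567 higher sites were 2.64 after cocaine and 0.78 after saline.

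**Figure D3:**
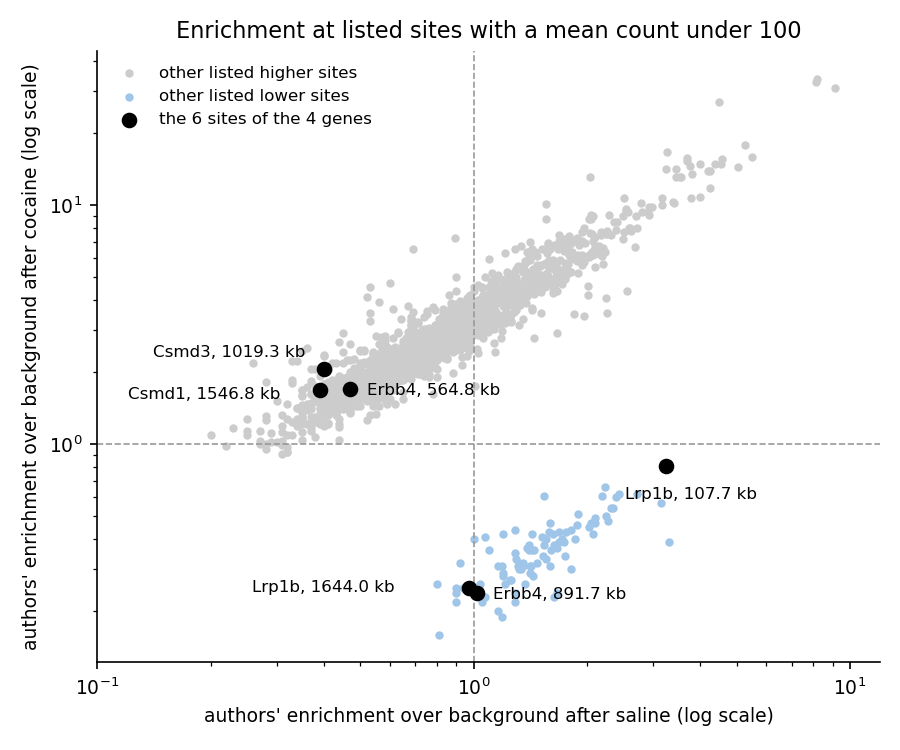
The authors' enrichment over background after cocaine (vertical axis) and after saline (horizontal axis) at listed sites with a mean count under 100, both on log scales. Black points are the 6 sites, grey and blue points the other higher and lower sites, and dashed lines mark an enrichment equal to background. The Lrp1b site at 107.7 kb lies at 0.81 and 3.25, apart from the Lrp1b site at 1644.0 kb and the lower Erbb4 site, which lie close together.

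All 6 sites lay inside the gene bodies, and none within 15 kb of a transcription start. Counted from the start, the Lrp1b sites lay 5.24% and 79.9% of the way through the gene, and the Erbb4 sites 52.9% (higher) and 83.5% (lower). The Csmd3 site lay at 84.1% and the Csmd1 site at 94.2%. Thus 5 of the 6 lay past the midpoint of their gene. Gene-body sites of other genes lay past the midpoint in 382 of 679 cases (56.3%), and those of other genes of 1000 kb or more in 14 of 26 cases (53.8%). The median position was 81.7% for the 6 sites and 58.1% for the 26, and no test was made on so few sites. Sites were 1000 to 1200 bp wide. Exons and introns of mm9 were not used here.

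**Figure D4:**
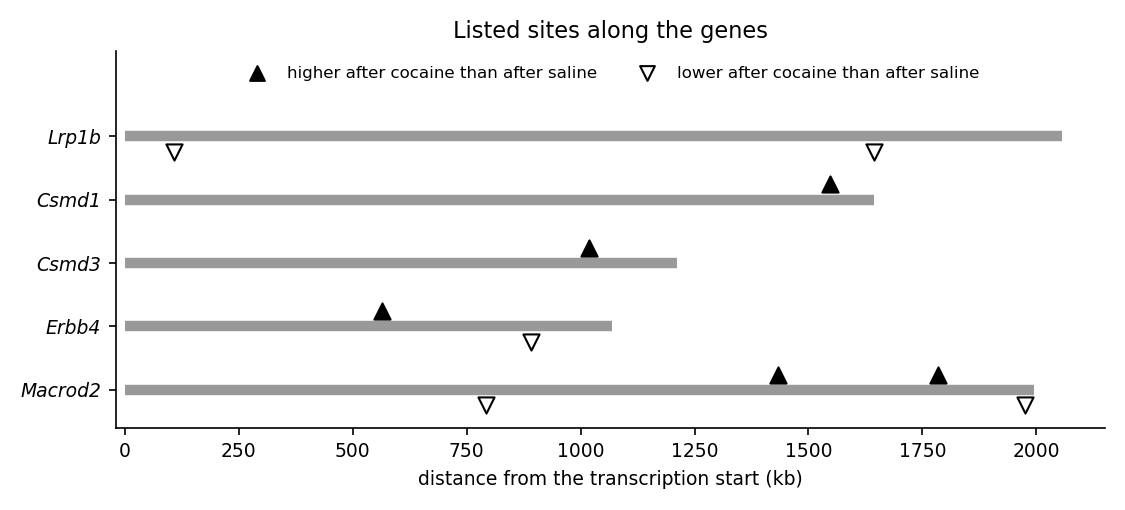
Listed sites along Lrp1b, Csmd1, Csmd3, Erbb4 and, for comparison, Macrod2. The horizontal axis is the distance from the transcription start in kb, grey bars are the genes, filled triangles above them are higher sites and open triangles below them are lower sites. Lower sites lie at 107.7 and 1644 kb in Lrp1b and at 891.7 kb in Erbb4.

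Sites per length of gene were counted next. Erbb4 held 1.87 sites per Mb, Lrp1b 0.97, Csmd3 0.83 and Csmd1 0.61, which makes 6 sites in 5.98 Mb, or 1.003 per Mb. The 16 other genes of 1000 kb or more with a site held 26 in 21.2 Mb, or 1.23 per Mb, with a median of 0.93 per gene and an upper quartile of 1.804. Genes without a listed site are not in the table, so these densities hold only for genes with at least 1 site.

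The gene with the most similar pattern, by the number of sites in each direction, was Macrod2, which encodes a hydrolase that removes ADP-ribose from proteins. It was the only other gene with at least 2 sites of which 1 or more was lower, among 53 genes with 2 or more sites. It spans 1995 kb and held 2 lower and 2 higher sites. The lower ones, 792.3 and 1976 kb from the start, had 3.51 ± 1.48 and 3.66 ± 2.86 normalized reads after cocaine (SD, n = 2), against 14.5 ± 1.53 and 14.6 ± 0.74 after saline (SD, n = 3). The higher ones, at 1434 and 1784 kb, had 19.7 ± 1.10 and 18.1 ± 0.078 after cocaine and 6.90 ± 2.07 and 5.78 ± 0.67 after saline. As in Erbb4, sites of both directions followed each other within 1 gene. The Macrod2 lower sites were 0.38 and 0.32 times background after cocaine and 1.64 and 1.35 times after saline, between the values of the Lrp1b pair.

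Lower sites were found in 20 genes, and 17 of these held no other site. Of the 20 genes of 1000 kb or more, 4 held a lower site, namely Lrp1b, Macrod2, the neurexin gene Nrxn3 and Erbb4. In such genes 6 of 32 sites were lower (18.8%, exact Clopper-Pearson 95% interval 7.21 to 36.4%). Without Lrp1b, Csmd1, Csmd3 and Erbb4 it was 3 of 26 (11.5%, interval 2.45 to 30.2%). In genes under 1000 kb it was 16 of 738 (2.17%, interval 1.24 to 3.50%). The 4 genes had been picked partly for their lower sites, so nothing is read from the share that includes them. The interval without the 4 genes overlaps that of the shorter genes between 2.45 and 3.50%. Such an overlap does not show the 2 shares to be alike, and their difference was not tested. Sites of 1 gene share their locus, and 2 of these 3 lie in Macrod2, so the intervals cover the counting of sites only.

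**Figure D5:**
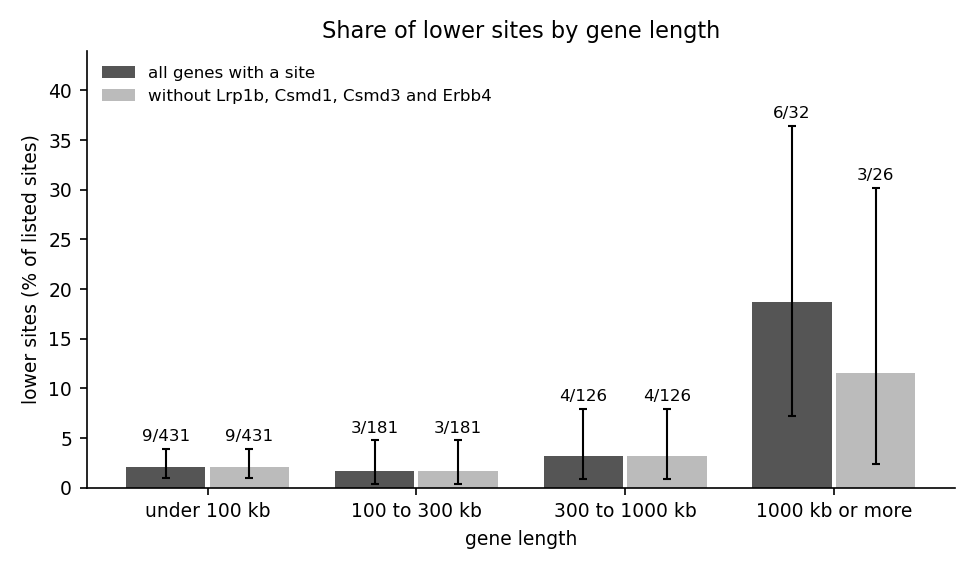
Lower sites as a percentage of listed sites (vertical axis) by length of the gene that holds them. Dark bars are all genes with a site, light bars leave out Lrp1b, Csmd1, Csmd3 and Erbb4, error bars are exact 95% intervals for counting sites and the numbers are lower sites over all sites. In genes of 1000 kb or more the share was 18.8% with and 11.5% without the 4 genes. Because the 4 genes had been picked partly for their lower sites, nothing is read from the dark bar of that class.

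The related genes with a listed site were Egfr, Nrg2, Lrp2, Lrp8 and Dab1, each with 1 site that was higher after cocaine, as were 97.1% of all listed sites with a gene name. Of 16 genes of ErbB signalling, the family of Erbb4 with its ligands and partners, 2 held a site, with a median log2 change of 1.87 against 1.82 over all listed sites. The epidermal growth factor receptor gene Egfr had 15.9 ± 1.59 normalized reads after cocaine and 4.05 ± 1.73 after saline. The neuregulin gene Nrg2 had 14.2 ± 0.81 after cocaine and 4.21 ± 2.37 after saline (SD, n = 2 and n = 3, here and below). Of 17 genes of the low-density lipoprotein receptor family and its partners, 3 held a site, with a median of 1.93. Lrp2, the gene of the endocytic receptor megalin, had 22.1 ± 5.70 after cocaine and 5.81 ± 2.33 after saline at a promoter site 1.28 kb upstream of the start. Lrp8, which encodes a reelin receptor, had 16.3 ± 1.01 after cocaine and 4.82 ± 1.53 after saline, and Dab1, the gene of the adaptor of reelin signalling, 15.5 ± 2.17 after cocaine and 3.37 ± 0.24 after saline. None of 13 genes for related CUB and sushi proteins and complement components, Csmd2 among them, held a site. In all, 688 genes held a listed site, and what share of all genes this is was not worked out. Nothing is therefore read from how many genes of a list held a site.

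A list of 52 other long genes had been drawn up as of fragile-site type from general knowledge, which the table cannot check, and it includes genes well under 1000 kb such as Dab1. Of these, 24 held 35 sites, 31 higher and 4 lower (11.4%), against 2.86% lower among all listed sites with a gene name. The median log2 change was 1.78, against 1.84 over those sites. The list was made with earlier results of these data known, so nothing is read from the difference or from the number of its genes with a site. The 4 lower sites were those of Macrod2, the one of Nrxn3 and the one of Thsd7b. Macrod2 held the most sites, followed by Auts2 and the neuroligin gene Nlgn1 with 3 each, all higher. The cadherin gene Cdh13, the catenin gene Ctnna3, the dihydropyrimidine dehydrogenase gene Dpyd and the adhesion gene Sdk1 held 2 higher sites each. Cntnap2, the longest gene in the table at 2241 kb and the gene of a neurexin-like adhesion protein, held 1 higher site with 19.8 ± 2.25 after cocaine and 7.41 ± 0.94 after saline. The human fragile-site genes FHIT and WWOX have mouse counterparts with 1 higher site each, with log2 changes of 1.59 in Fhit and 1.58 in Wwox.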

How the data were processed

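Per its file name, the deposited table of differential PARP-1 ChIP-seq sites comes from diffReps with a negative binomial test. Per the submitters' processing notes, the build was mm9 and the software CASAVA 1.8.2. Per the labels, libraries had 21 PCR cycles and 100 bp reads. Aligner, duplicate handling, window settings and listing threshold are not given in the sources used here. Treatment columns were taken as cocaine, because the file name compares cocaine with saline and the design text calls saline mice control.

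The deposited count cells hold normalized counts, 2 values for cocaine and 3 for saline. The authors' group averages are a signal, their enrichment is a ratio over an unstated background, their fold change is on the log2 scale, and they give a p-value and adjusted p-value per site. Of 8635 deposited counts, 100.0% were whole multiples of 1 step per library within 0.1 read, which gave whole reads. The listed sites held 46406 to 82360 reads per library. Depth was taken as the inverse of these steps, which are the authors' scaling factors, and not from total reads per library. By that measure the shallowest library had 72.3% of the depth of the deepest, and cocaine libraries made up 41.5% of the total.

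Log2 changes compare group means, with no pseudocount. Depth-adjusted ratios of summed reads have exact Clopper-Pearson 95% intervals (scipy 1.17.1), which cover counting error only, since PCR copies cannot be told from separate molecules. The recovery of whole reads and the intervals were tested on simulated reads that had counting error alone. The simulation had no PCR copies, no further spread between libraries and no selection of sites, so it does not bear on those. No test of cocaine against saline was run, because the sites had been selected on that contrast. Alternatives were another scaling, a pseudocount of 1, leaving out each replicate, a stricter adjusted p and merging of near sites. The limit of a mean count of 100 was chosen after the values were seen.

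All sites of the 4 genes are named, then every gene with at least 2 sites of which 1 is lower, all genes with a site in the ErbB, low-density lipoprotein receptor and CSMD lists, and the 8 genes with most sites in the list of very long genes, ties broken by name, which chose Cntnap2 among those with 1 site. Fhit, Wwox, Nrxn3 and Thsd7b, and all neighbouring sites, were named after their values were seen. The members and lists were chosen with earlier results of these data known. RefSeq gene names (GRCm38.p6, used also for the order of neighbouring genes, with none of its coordinates printed) held 16 of 16, 17 of 17, 13 of 13 and 51 of 52 list symbols.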

Additional observations from a re-analysis of the deposited data

How the results depend on the processing

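Of 48 alternative values for the log2 change at single sites none changed direction. Because the groups did not overlap at any site, leaving out a replicate or adding 1 could not have reversed a change. Only the scaling to equal totals at sites of high count could have done so. In the following, log2 changes are given in the order Lrp1b (median of 2 sites), lower Erbb4, Csmd3 and the median of the 3 lower sites. With 1 added to the group means they were -1.70, -1.80, 2.09 and -1.71, and with means of log2(value + 1) they were -1.70, -1.80, 2.10 and -1.73. Adding 1 pulls low counts toward each other by construction. Equal totals at sites of high count, and counts summed over sites, moved the medians by less than the replicate SD. Leaving out 1 replicate in turn gave -2.22 to -1.69 at the Lrp1b site near the start, -2.16 to -1.70 at the other, and -1.97 to -1.87 for the median of this pair, whose sites moved in opposite directions when a cocaine replicate was left out. It gave -2.19 to -1.92 for the lower Erbb4 site, 1.70 to 2.15 for the higher one, 1.93 to 2.77 for Csmd1, 2.32 to 2.59 for Csmd3, -2.19 to -1.92 for the median of the 3 lower sites and 1.97 to 2.46 for that of the 3 higher sites. The groups still did not overlap at any of the 6 sites. Since they did not overlap with all replicates, leaving one out could not change this, and nothing is read from it. Fits with 1 cocaine replicate have no spread of their own. Under an authors' adjusted p of 0.001, 1 higher and 0 lower sites remained, or 0.167 sites per Mb over the 4 genes. Other counts stayed at 3 higher and 3 lower sites with a log2 size of 1.5 or more, with sites within 10 kb merged, and by the gene bounds in the table. Merging could not change them, since sites of 1 gene lay 327 kb (Erbb4) and 1536 kb (Lrp1b) apart. Nor could the gene bounds, since all 6 were already listed as gene-body sites of these genes. No annotation of mm9 beyond the gene bounds in the table was used. No paired analysis was possible because the values carry no replicate numbers. Depth limits all 6 sites, whose lower group held 8 to 12 reads in all.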

Other observations

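The listed sites nearest to the 4 genes, 1 on each side of each gene, were all higher after cocaine, 8 of 8, with log2 changes from 1.49 to 2.34 and a median of 1.803. Of all listed sites 92.9% were higher, with a median of 1.82 over all of them. The 8 sites lay 69.5 to 2665 kb from the gene bounds. The closest was an intergenic site 69.5 kb before the start of Erbb4, with 17.25 and 18.18 normalized reads in the cocaine replicates, against 6.37, 3.65 and 5.46 in the saline replicates. The nearest sites on either side of Lrp1b lay 750.4 kb before its start and, in the body of Dennd1a, 2354 kb beyond its end. Dennd1a encodes a protein of clathrin-mediated endocytosis. At that site the counts were 13.4 ± 0.35 after cocaine (SD, n = 2) and 3.03 ± 1.74 after saline (SD, n = 3). The nearest site beyond the end of Csmd1 lay in Dlgap2, the gene of a postsynaptic scaffold protein, with 16.0 ± 1.75 after cocaine and 4.51 ± 1.92 after saline. Of the 8 protein-coding genes that flank the 4 genes in the RefSeq gene order of GRCm38.p6, 1 held a listed site, the zinc finger transcription factor gene Ikzf2 before the start of Erbb4. The share over all genes was not worked out, so nothing is read from this count.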
